A study of Homo sapiens with 4 samples.

Results

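The Wnt and beta-catenin target genes described here are 10 protein-coding genes picked by name: CTNNB1, TCF7L2, LEF1, AXIN2, NKD1, RNF43, ZNRF3, LGR5, GLUL and TBX3. All 10 were found among the 58174 genes of the expression table, each in a single row. They were followed in LM3, a hepatocellular carcinoma line, and RBE, a line of intrahepatic cholangiocarcinoma. In each line FENDRR, a long noncoding RNA, was targeted by RNA interference (si-FENDRR), and a control RNA (si-NC) was used in parallel. Both were delivered by lipofection, and cells were taken at 48 h. There was 1 library for each line and transfection, 4 in all, so the groups were LM3 si-FENDRR, LM3 si-NC, RBE si-FENDRR and RBE si-NC. The series asks what loss of FENDRR does to gene expression in primary liver cancer cells.

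In the canonical Wnt pathway, secreted Wnt proteins bind Frizzled receptors and LRP5 or LRP6, and this halts the destruction complex that marks beta-catenin for degradation. Beta-catenin then enters the nucleus, joins factors of the TCF/LEF family and switches on target genes. Several targets act back on the pathway: AXIN2 and NKD1 dampen the signal inside the cell, while RNF43 and ZNRF3 remove Frizzled from the surface unless R-spondins and LGR receptors restrain them. In the liver the pathway is known for shaping the zone of hepatocytes around the central vein, where GLUL is made, and CTNNB1 is often mutated in hepatocellular carcinoma.

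The members' neighbourhood at the transcript start was compared first, since TCF/LEF factors bind DNA words built around CTTTG. RefSeq promoter windows on GRCh38.p14 matched 5 of the 10 members (CTNNB1, TCF7L2, LEF1, RNF43 and GLUL) with 9 windows, because some genes have several starts. Each window held the 250 bases before a start. The full words searched on both strands were CTTTGAA with its variant CTTTGAT, and CTTTGTA with its variant CTTTGTT, all of which contain the core CTTTG. The 4 windows below belong to 3 of the matched members called between the lines, RNF43 and GLUL toward LM3 and LEF1 toward RBE, and to the only member window with a full word, at an internal start of TCF7L2. Capitals mark the core CTTTG or its reverse complement CAAAG. They lie at chr17:58417535-58417784 on the minus strand for RNF43, chr1:182391791-182392040 on the minus strand for GLUL, chr4:108166302-108166551 on the minus strand for LEF1 and chr10:113126383-113126632 on the plus strand for TCF7L2.
RNF43: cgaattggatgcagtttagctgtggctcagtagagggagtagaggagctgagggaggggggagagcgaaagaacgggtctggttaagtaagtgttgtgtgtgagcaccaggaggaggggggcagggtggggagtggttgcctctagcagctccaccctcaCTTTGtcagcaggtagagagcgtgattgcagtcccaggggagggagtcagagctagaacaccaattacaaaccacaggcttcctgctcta
GLUL: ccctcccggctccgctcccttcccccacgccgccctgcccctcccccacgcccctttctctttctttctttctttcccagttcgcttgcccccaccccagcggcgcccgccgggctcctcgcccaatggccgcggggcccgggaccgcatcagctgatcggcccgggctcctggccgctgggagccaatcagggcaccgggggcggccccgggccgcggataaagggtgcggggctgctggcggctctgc
LEF1: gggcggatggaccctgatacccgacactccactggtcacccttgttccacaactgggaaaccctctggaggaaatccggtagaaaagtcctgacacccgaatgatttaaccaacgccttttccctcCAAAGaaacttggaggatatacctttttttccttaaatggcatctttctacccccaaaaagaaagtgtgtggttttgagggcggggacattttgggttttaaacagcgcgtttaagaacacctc
TCF7L2: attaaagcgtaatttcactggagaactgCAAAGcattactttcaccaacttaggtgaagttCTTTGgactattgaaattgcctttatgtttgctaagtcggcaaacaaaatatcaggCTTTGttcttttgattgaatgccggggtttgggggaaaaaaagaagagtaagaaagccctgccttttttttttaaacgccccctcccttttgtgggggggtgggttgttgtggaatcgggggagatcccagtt

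The LEF1 start is internal too: its transcript begins at 108166301, while the listed gene reaches 108168956 on this minus strand. LEF1 matched no other window, so the bases before its outer end were not read. The CTNNB1 start, at 41199505, also lies inside its listed gene, which begins at 41194837. So do the GLUL and RNF43 starts shown, at 182391790 and 58417534. Those listed genes reach 182392206 and 58417595 on the minus strand. The RNF43 window held 1 core, 90 bases before the start, and the LEF1 window held 1, 124 bases before its internal start. The GLUL window held none. In the TCF7L2 window there were 3 cores, and the one that begins 133 bases before the start is part of the full word CTTTGTT. Over all member windows, 5 of 9 held a core and 1 of 9 a full word, against 42.1% and 12% of 35116 promoter windows of the same length. The GLUL window was 74.8% G and C with 25 CpG pairs and that of CTNNB1 74.4% with 34, while those of RNF43 and LEF1 had 56% and 47.6% with 4 and 8 CpG pairs. Over all windows the median was 58% with 11 CpG pairs. A match of letters is no evidence of binding, and these windows do not reach enhancers.

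Levels are given as FPKM, fragment numbers divided by gene length and library size, which puts genes of different length on a common scale. Per library, 13437 to 13682 genes reached an FPKM of 1. The 2 libraries of a line had a Pearson r of 0.982 in LM3 and 0.985 in RBE across tested genes, against 0.784 to 0.786 between lines, where genes are not independent replicates. FENDRR was listed at 0 in all 4 libraries, so its knockdown could not be checked and the si-FENDRR libraries are taken by label. Of 10 hepatocyte markers 8 were tested, of which 5 were called higher in LM3 and 2 in RBE. Summed levels of the 10 were 185 to 192 FPKM in LM3 and 81.8 to 110 FPKM in RBE. Of 10 cholangiocyte markers 9 were tested, of which 1 was called higher in LM3 and 7 in RBE. Sums of the 10 were 1209 to 1389 FPKM in LM3 and 1737 to 1765 FPKM in RBE. Over all tested genes 32.3% were called higher in LM3 and 26.4% higher in RBE. Single genes ran against their list: SPP1 gave 1118 and 909 FPKM of the cholangiocyte sum in LM3 against 515 and 504 in RBE, and SERPINA1 gave 0.0957 and 0.0892 FPKM of the hepatocyte sum in LM3 against 56.8 and 82.5 in RBE. AFP was listed at 0 in RBE, and APOA1 was at or under 0.071 FPKM in every library. Of 5 markers each, summed levels in LM3 and RBE were at most 4.4 and 0.544 FPKM for endothelial cells, 81.4 and 27.1 for leukocytes and 28.7 and 4.92 for fibroblasts, while PTPRC, CDH5 and COL1A2 were at or under 0.13 FPKM throughout. CD3E and CLEC4M were listed at 0. LUM alone gave 28.4 and 24.9 FPKM of the fibroblast sum in LM3, and CD68 gave 60.1 and 62.2 of the leukocyte sum there. CD79A had 16.8 and 19.2 FPKM and PECAM1 3.1 and 3.86 FPKM in LM3, while LYZ had 12.7 and 12.5 FPKM in RBE. The part of these markers in the results was not tested. In bulk RNA, fewer cells of a kind and less RNA per cell cannot be told apart.

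**Figure D1:**
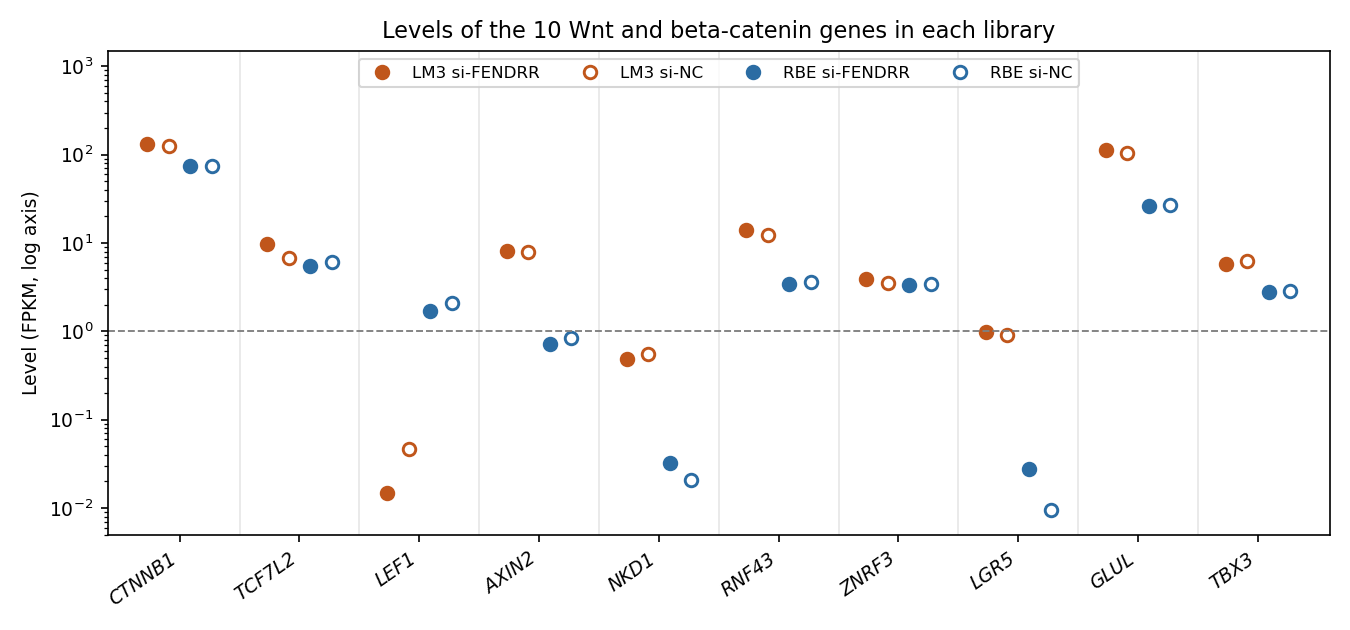
Level of each member in each library (FPKM, log axis), with LM3 left of RBE and si-FENDRR (filled) left of si-NC (open) in each line. The dashed line marks an FPKM of 1. AXIN2 is at 8.21 and 7.82 in LM3 and under 1 in both RBE libraries, LEF1 is at most 0.0469 in LM3 and above 1 in RBE, and the 2 libraries of a line lie close together for most members.

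The lines differed in most of these genes. AXIN2, GLUL, RNF43, TBX3 and CTNNB1 were higher in LM3 than in RBE, and LEF1 was lower in LM3. TCF7L2 and ZNRF3 were not called. LGR5 and NKD1 were too weak for the main test, with higher values in LM3. The test was limma on log2(FPKM + 1), with Benjamini-Hochberg adjustment over all genes at 0.05, and used genes that reached an FPKM of 1 in any library, which 8 of the 10 members did. Of these 8, 6 were called, 5 higher and 1 lower in LM3. AXIN2 and LEF1 are among the 6 but passed the filter through 1 line only, so they had to differ. Among 15930 tested genes 58.7% were called, 32.3% higher in LM3 and 26.4% higher in RBE, so a count of this size is not a result about the members as a group. Leaving out a library also means dropping the transfection term, and the lone library of a line is then assumed to vary like the other line. The number of genes called was then 5836 without the RBE si-FENDRR library and 5573 without the RBE si-NC library, against 9643 with all 4 libraries and no such term and 9348 with it. Because si-FENDRR and si-NC are the only replicates of a line, its 2 libraries also differ in transfection. The transfection term takes out a shift shared by both lines. The 1 residual degree of freedom then holds the difference between the lines' shifts. The labels name no separate cultures, and that difference may be partly technical.

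CTNNB1 encodes beta-catenin itself (ENSG00000168036, chromosome 3, 41194837 to 41260096, plus strand, hg38). It had 133 FPKM with si-FENDRR and 124 with si-NC in LM3, against 74.7 and 74.8 in RBE. It was the most abundant member in every library, above at least 94.6% of tested genes, and the lines did not overlap. The difference was 0.77 ± 0.11 (SE, log2 scale, n = 2 libraries per line, adjusted p = 0.00759 by limma). RNA level does not show how much beta-catenin protein is stable or nuclear.

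TCF7L2, a TCF/LEF factor that carries beta-catenin to DNA (ENSG00000148737, chromosome 10, 112950250 to 113167678, plus strand), had 9.76 FPKM with si-FENDRR and 6.76 with si-NC in LM3, against 5.56 and 6.08 in RBE. Both LM3 values were higher, but they were far apart, and the difference of 0.42 ± 0.19 did not pass (adjusted p = 0.128 by limma). LEF1, the factor of the same family that is itself a Wnt target (ENSG00000138795, chromosome 4, 108047545 to 108168956, minus strand), had 0.0147 and 0.0469 FPKM in LM3, again with si-FENDRR before si-NC, against 1.69 and 2.08 in RBE. It was nearly unlisted in LM3 and was the only member with its higher values in RBE (-1.48 ± 0.15, adjusted p = 0.00422 by limma). LEF1 passed the filter through RBE only, so it had to differ and its p-value is not separate support. No fold is given for it, since the files hold no fragment counts behind values so low. Its antisense gene LEF1-AS1 was at or under 0.0759 FPKM.

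AXIN2, a scaffold of the destruction complex and the target most widely used as a readout of canonical Wnt signalling, lies on chromosome 17 (ENSG00000168646, 65528563 to 65561647, minus strand). It had 8.21 FPKM with si-FENDRR and 7.82 with si-NC in LM3, against 0.718 and 0.839 in RBE. AXIN2 thus passed the filter through LM3 only, so it had to differ and its p-value is not separate support. The LM3 mean was 10.3 times that of RBE, and the difference was 2.34 ± 0.14 (adjusted p = 0.00154 by limma), the largest among the tested members when 1 is added to the FPKM. Both its size and its rank depend on that pseudocount. It was 3.21 with 0.1 added, where LEF1 was wider at -3.93, and 1.17 with 5 added, where GLUL was wider at 1.85, and it was called each time. Of all tested genes, 90% had line differences between -1.70 and 1.99, so AXIN2 lay outside that range and the other tested members inside it or at its edge. The gene AC004805.1, which shares 1316 exon bases with AXIN2 on the same strand, was at or under 0.0192 FPKM.

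NKD1, which binds Dishevelled and restrains the signal (ENSG00000140807, chromosome 16, 50548330 to 50649249, plus strand), had 0.49 FPKM with si-FENDRR and 0.55 with si-NC in LM3, against 0.0324 and 0.0208 in RBE. LGR5, the R-spondin receptor known as a stem cell marker of the gut (ENSG00000139292, chromosome 12, 71439770 to 71586310, plus strand), had 0.991 and 0.904 FPKM in LM3, against 0.028 and 0.00961 in RBE. Neither gene reached an FPKM of 1 in any library, and in both the LM3 libraries stood above both RBE libraries. In a fit without the filter, read for these 2 genes after the data were seen, their line differences were 0.57 ± 0.082 for NKD1 (adjusted p = 0.0271 by limma) and 0.93 ± 0.11 for LGR5 (adjusted p = 0.02 by limma). On the log2(FPKM + 1) scale such weak genes are compressed, and no fold is given.

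RNF43 and ZNRF3 are paralogous membrane ubiquitin ligases that clear Frizzled from the cell surface, and they behaved differently between the lines. RNF43 (ENSG00000108375, chromosome 17, 58352500 to 58417595, minus strand) had 14 FPKM with si-FENDRR and 12.2 with si-NC in LM3, against 3.41 and 3.65 in RBE. Its LM3 mean was 3.71 times that of RBE (1.64 ± 0.14, adjusted p = 0.00282 by limma). ZNRF3 (ENSG00000183579, chromosome 22, 28883592 to 29057487, plus strand) had 3.94 and 3.49 FPKM in LM3, against 3.35 and 3.47 in RBE. Both ZNRF3 values in LM3 were above both in RBE, but the nearest, 3.49 and 3.47 FPKM, almost touched. Its difference was 0.094 ± 0.13 (adjusted p = 0.576 by limma). The last exon bases of RNF43 overlap the start of SUPT4H1 on the same strand, with 143 exon bases shared. SUPT4H1 ran the other way, with 40.2 and 51 FPKM in LM3 against 57.6 and 81.5 in RBE.

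GLUL, the glutamine synthetase of pericentral hepatocytes (ENSG00000135821, chromosome 1, 182381704 to 182392206, minus strand), had 113 FPKM with si-FENDRR and 105 with si-NC in LM3, against 26.5 and 26.8 in RBE. It was the second most abundant member in all 4 libraries, and its LM3 mean was 4.1 times that of RBE (1.99 ± 0.11, adjusted p = 0.00144 by limma). TBX3, a T-box repressor reported as a beta-catenin target in liver tumours (ENSG00000135111, chromosome 12, 114670254 to 114684164, minus strand), had 5.74 and 6.19 FPKM in LM3, against 2.77 and 2.9 in RBE. Its LM3 mean was 2.1 times that of RBE (0.86 ± 0.13, adjusted p = 0.00871 by limma). Neither gene shares exon bases with another listed gene. TBX3 came nearest to losing its call, at an adjusted p of 0.049 by limma without the RBE si-FENDRR library.

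**Figure D2:**
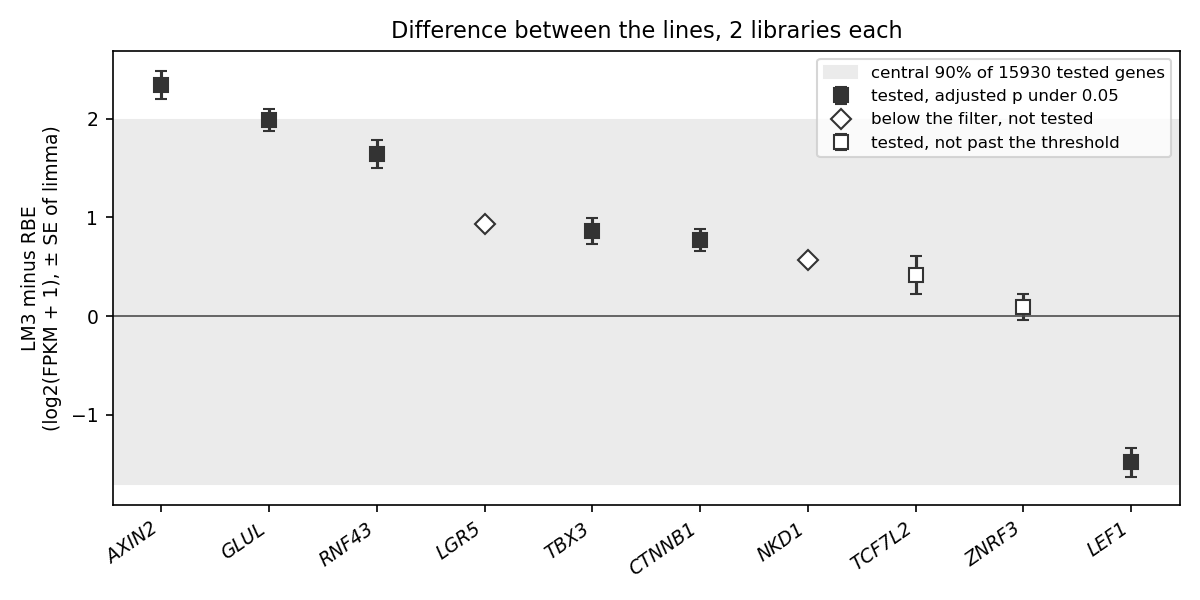
LM3 minus RBE for each member on the log2(FPKM + 1) scale, with the standard error of limma for tested members (squares, filled where called) and no error for the 2 below the filter (diamonds). The grey band holds the central 90% of tested genes. AXIN2 lies highest at 2.34, above the band, and LEF1 lowest at -1.48, inside it.

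Ordered by level, LM3 had CTNNB1 and GLUL first, then RNF43, then TCF7L2 and AXIN2, which overlapped, then TBX3, ZNRF3, LGR5, NKD1 and LEF1. In RBE the order was CTNNB1, GLUL and TCF7L2, then RNF43 and ZNRF3, which overlapped, then TBX3, LEF1, AXIN2, NKD1 and LGR5, the last pair overlapping. Across the 8 tested members, LM3 libraries were both above RBE in 7 and both below in 1. Over all tested genes these shares were 44.3% and 37.4%, and AXIN2 and LEF1, which passed the filter through 1 line only, had to differ.

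The series' own question, the effect of si-FENDRR, was put to the same genes. Over both lines limma called no member for the transfection, with adjusted p-values from 0.964 for TCF7L2 to 0.995 for AXIN2, and none had an unadjusted p under 0.05. Of all 15930 tested genes 0 (0%) were called, and 657 had an unadjusted p under 0.05. This test uses the lines as replicates and has 1 residual degree of freedom, so it asks whether both lines changed alike. A p that misses the threshold does not show that the levels were equal.

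Within each line there is 1 library per transfection and no test. No member differed 2-fold in FPKM + 1 in either line, as did 2.13% of tested genes in LM3 and 1.75% in RBE. Without the added 1, LEF1 in LM3 and LGR5 in RBE were more than 2-fold apart, at levels of at most 0.0469 and 0.028 FPKM. The widest difference was that of TCF7L2 in LM3, 0.47 on the log2 scale for 9.76 FPKM with si-FENDRR and 6.76 with si-NC, followed by RNF43 at 0.18 for 14 and 12.2 FPKM. In RBE the widest was that of LEF1, -0.19 for 1.69 FPKM in the si-FENDRR library and 2.08 FPKM in the si-NC library. Of all tested genes, 90% lay between -0.49 and 0.56 in LM3 and between -0.44 and 0.48 in RBE, and every member lay inside both ranges. AXIN2 differed by 0.062 in LM3 and -0.10 in RBE, and GLUL by 0.11 and -0.015. CTNNB1 differed by 0.11 and -0.0028.

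Signs did not agree between the lines for most members. Of the 8 tested, CTNNB1, TCF7L2, AXIN2, RNF43, ZNRF3 and GLUL were above si-NC in LM3 and below it in RBE, a pattern seen in 20.1% of tested genes. With each library scaled to the same FPKM total this held for 4, because GLUL and CTNNB1 were then above si-NC in both lines. TBX3 and LEF1 were lower with si-FENDRR in both lines (21.8% of tested genes), and 0 were higher in both (26.9% of tested genes). The difference between the lines' responses has no replicates and was not tested.

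**Figure D3:**
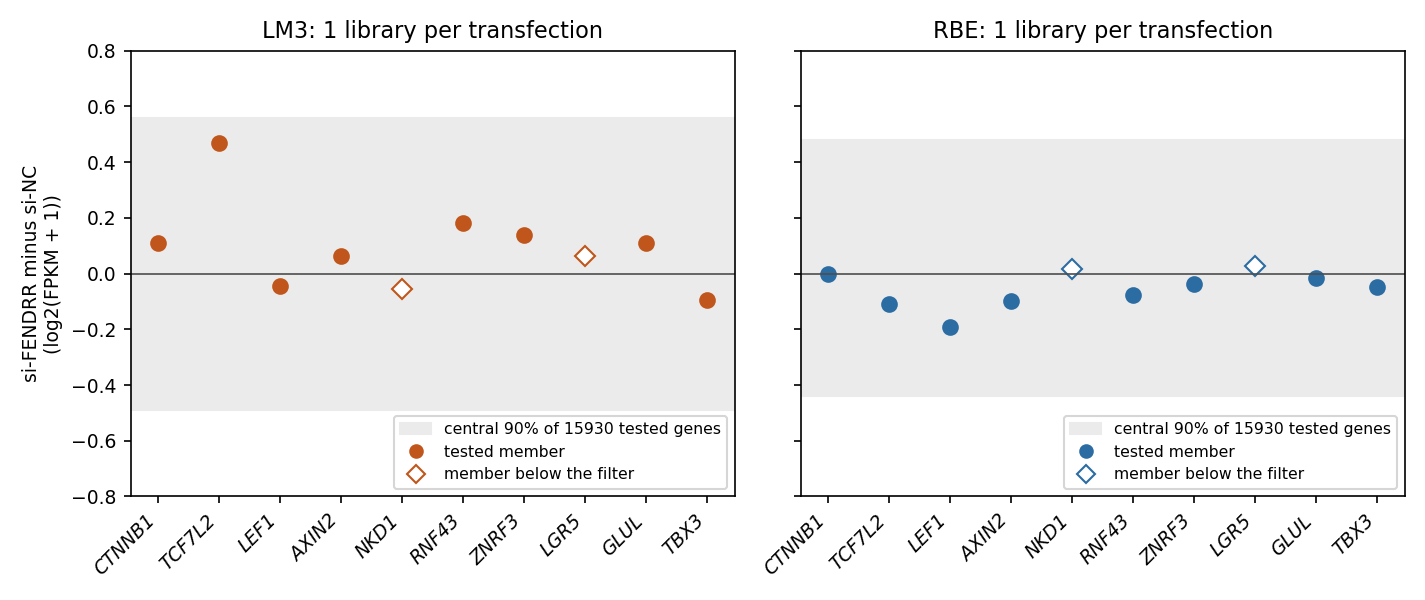
si-FENDRR minus si-NC for each member in LM3 (left) and RBE (right), on the log2(FPKM + 1) scale, from 1 library per transfection. The grey band holds the central 90% of tested genes in that line. All members lie inside the bands, and TCF7L2 in LM3, at 0.47, lies farthest from 0.

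The rest of the pathway was read from 9 lists of Wnt genes, 112 entries in all, of which 66 passed the filter. Between the lines 24 were called higher in LM3 and 26 higher in RBE (32.3% and 26.4% of all tested genes), and the median difference was -0.022, against 0.092 over all tested genes. None was called between transfections by limma, and 1, MYC, had an unadjusted p under 0.05. These counts describe the lists. A gene that passes the filter through 1 line only must differ between them.

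Of 19 Wnt ligand genes, 5 passed, 1 called higher in LM3 and 3 higher in RBE. WNT5A, a ligand mostly of the non-canonical branch, had 6.85 FPKM with si-FENDRR and 6.09 with si-NC in LM3, against 0.579 and 0.669 in RBE. WNT7B, a ligand that can act through beta-catenin, had 1.5 and 1.4 FPKM in LM3, against 14.2 and 14 in RBE (-2.63 ± 0.12, adjusted p = 0.00115 by limma). The lines thus had different leading ligands, while WNT3A was at or under 0.017 FPKM in all 4 libraries. PORCN and WLS, which acylate Wnt proteins and ferry them out of the cell, were both called higher in LM3, WLS just inside the threshold (0.61 ± 0.18, adjusted p = 0.0498 by limma). PORCN had 6.41 and 8.72 FPKM in LM3, against 2.25 and 1.68 in RBE. The R-spondin genes RSPO1 and RSPO2 were listed at 0 in every library, and RSPO3 and RSPO4 were at or under 0.0184 FPKM.

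Of 17 receptor genes, 12 passed, 5 called higher in LM3, 4 higher in RBE and 3 not called. FZD2 showed the widest gap, with 0.925 FPKM with si-FENDRR and 1.1 with si-NC in LM3, against 31.5 and 31.7 in RBE (-4.02 ± 0.12, adjusted p = 0.000677 by limma). LRP5, the co-receptor, was the most abundant and had 49.2 and 63.6 FPKM in LM3, against 33.2 and 30.1 in RBE. LGR4, the R-spondin receptor related to LGR5, had 4.14 and 10.3 FPKM in LM3, against 30.4 and 29.3 in RBE. LGR4 therefore ran opposite to LGR5 between the lines. It was the only gene of the 9 lists to differ 2-fold in FPKM + 1 between transfections within LM3 (-1.14 there and 0.052 in RBE, on the log2 scale). Without the added 1, other list genes differed 2-fold there as well. Among them were MYC and TCF7, with ratios of si-FENDRR over si-NC of 2.11 and 2.07 in LM3.

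Of 14 antagonist genes, 6 passed, 2 called higher in LM3 and 3 higher in RBE. DKK1, which blocks LRP5 and LRP6 and is itself a known Wnt target, had 18.8 FPKM with si-FENDRR and 16.5 with si-NC in LM3, against 1.47 and 1.28 in RBE (2.97 ± 0.12, adjusted p = 0.000965 by limma). DKK3, a more distant relative, had 40.5 and 44.5 FPKM in LM3, against 26.4 and 26.9 in RBE. SFRP5, a secreted decoy receptor, was listed at 0 in both LM3 libraries and had 2.33 and 1.87 FPKM in RBE. Of 15 genes of the destruction complex and Dishevelled, 14 passed, 6 called higher in LM3 and 4 higher in RBE. DVL2 had 50.8 and 47.2 FPKM in LM3 against 25.7 and 24.3 in RBE, and FBXW11, an F-box protein that recognises beta-catenin, had 7.41 and 10.6 against 19.6 and 20.2. NKD2, the paralog of NKD1, had its higher values in RBE, with 0.956 and 1.42 FPKM in LM3 against 4.67 and 2.75 in RBE.

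**Figure D4:**
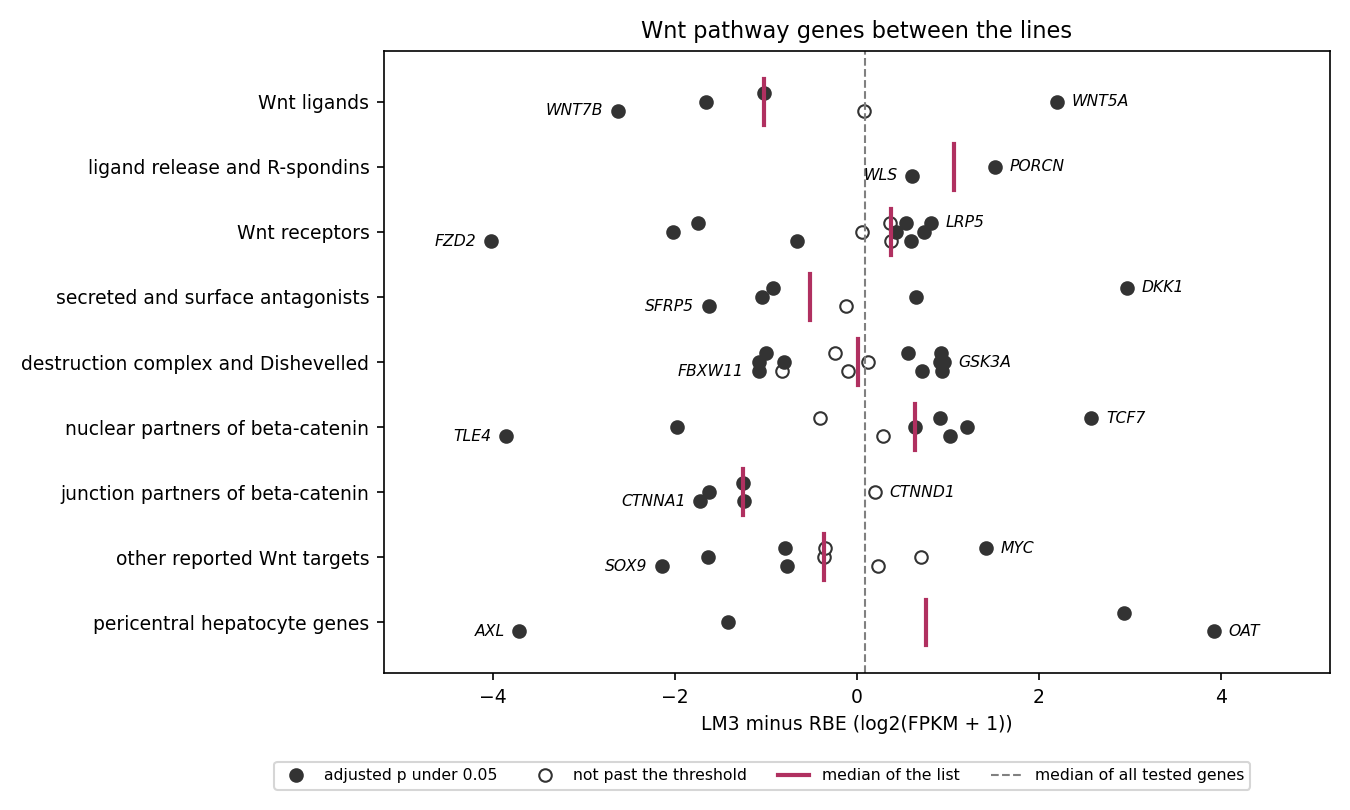
LM3 minus RBE (log2(FPKM + 1)) for each tested gene of the 9 pathway lists, filled where limma called it. Red bars are list medians, the dashed line is the median of all tested genes, and the extreme genes of each list are named. FZD2, TLE4 and AXL lie near -4 toward RBE and OAT lies near 4 toward LM3.

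Among nuclear partners of beta-catenin, 9 of 12 passed, 5 called higher in LM3 and 2 higher in RBE. TCF7, another TCF/LEF factor, had 10.1 FPKM with si-FENDRR and 4.88 with si-NC in LM3, against 0.358 and 0.338 in RBE (2.58 ± 0.26, adjusted p = 0.00408 by limma). Like LEF1, TCF7 passed the filter through 1 line only, so it had to differ and its p-value is not separate support. By level, TCF7 and LEF1 stood on opposite sides: LM3 carried TCF7 with almost no LEF1, and RBE carried LEF1 with little TCF7, beside TCF7L2 in both. SKP1, which overlaps TCF7 on the other strand, had 61.9 and 53.7 FPKM in LM3 against 166 and 213 in RBE, the reverse of TCF7. The TLE corepressors, which bind TCF/LEF factors in place of beta-catenin, did not share a direction between the lines. TLE4 had 0.0961 and 0.0509 FPKM in LM3, against 15.3 and 13.9 in RBE, and TLE1, at 58.1 and 54.2 against 48.1 and 43.5, was not called (adjusted p = 0.0847 by limma). TLE2 was also called higher in RBE. TLE3 was called higher in LM3, with 7.93 and 7.55 FPKM there against 3.55 and 3.06 in RBE. TLE4 shares exon bases with AL353813.1, which was at or under 0.121 FPKM in LM3 and had 8.53 and 8.52 FPKM in RBE. BCL9L, a co-activator bound to beta-catenin, had 22.9 and 26.6 FPKM in LM3, against 9.46 and 10.8 in RBE.

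**Figure D5:**
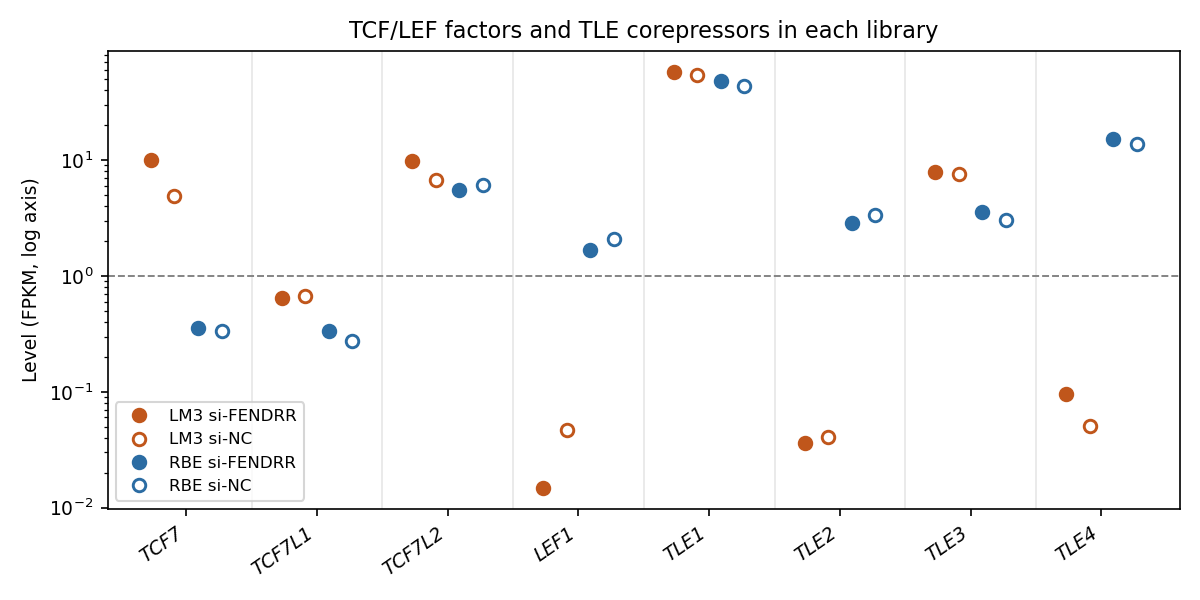
Level of the TCF/LEF factors and TLE corepressors in each library (FPKM, log axis), with LM3 left of RBE and si-FENDRR (filled) left of si-NC (open). The dashed line marks an FPKM of 1. TCF7 and TLE3 are higher in LM3, and LEF1, TLE2 and TLE4 are higher in RBE, where LEF1 and TLE2 reach only 2.08 and 3.35. TCF7L2 and TLE1 are well expressed in both lines.

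Of 6 partners of beta-catenin at cell junctions, 5 passed, 0 called higher in LM3 and 4 higher in RBE. CTNNA1, the alpha-catenin that links beta-catenin to actin, had 60.7 FPKM with si-FENDRR and 52.7 with si-NC in LM3, against 199 and 178 in RBE (-1.72 ± 0.10, adjusted p = 0.00162 by limma). JUP, the plakoglobin that can take the place of beta-catenin in junctions, had 57.1 and 67.5 FPKM in LM3, against 189 and 199 in RBE. CTNNB1 itself ran the other way.

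Among 13 other reported Wnt targets, 9 passed, 1 called higher in LM3 and 4 higher in RBE, and 4 were not called. SOX9, a progenitor and biliary factor, had 6.59 FPKM with si-FENDRR and 7.13 with si-NC in LM3, against 35.6 and 31.8 in RBE. CCND1, cyclin D1, had 37.2 and 40.7 FPKM in LM3, against 71.1 and 65.2 in RBE. MYC was the single target called higher in LM3, with 12.8 and 6.04 FPKM there, against 3.07 and 2.3 in RBE (1.42 ± 0.21, adjusted p = 0.00878 by limma). Its difference between transfections was 0.97 in LM3 and 0.30 in RBE, with an unadjusted p of 0.0398 and an adjusted p of 0.959 by limma.

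Of 9 pericentral hepatocyte genes, 4 passed, 2 called in each direction. Over all tested genes 32.3% were called higher in LM3 and 26.4% higher in RBE. OAT, ornithine aminotransferase, had 15.8 FPKM with si-FENDRR and 12.9 with si-NC in LM3 and was listed at 0 in both RBE libraries. RGN, regucalcin, had 6.18 and 7.39 FPKM in LM3, against a listed 0 and 0.0176 in RBE. AXL and CYP2E1 went the other way. AXL had 1.31 and 1.05 FPKM in LM3, against 28.3 and 26.7 in RBE (-3.71 ± 0.12, adjusted p = 0.000725 by limma). CYP2E1 had 0.253 and 0.106 FPKM in LM3, against 2.26 and 2.05 in RBE. OAT and RGN passed the filter through LM3 only and CYP2E1 through RBE only, so they had to differ. Like GLUL, OAT and RGN had their higher values in LM3, while AXL and CYP2E1 did not.

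Genes with the pattern nearest to a member were found by the root mean square distance of centred log2(FPKM + 1) over the 4 libraries, among 14127 tested genes with a mean FPKM of at least 1. The nearest to AXIN2 was LINC01269, at 8.11 and 8.01 FPKM in LM3 against 0.716 and 0.846 in RBE (distance 0.017). The nearest to GLUL was ABCA7, at 16.9 and 15.3 against 3.23 and 3.23 FPKM (distance 0.014), and the nearest to CTNNB1 was IFI6, at 7.39 and 6.77 against 3.67 and 3.74 FPKM (distance 0.0071). With 4 libraries near neighbours are common: 73 genes lay within 0.1 of AXIN2, 118 of GLUL and 575 of CTNNB1.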

How the data were processed

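RNA of LM3 and RBE cells, si-FENDRR and si-NC of each, was sequenced at 48 h, 1 library per group. The authors deposited FPKM per gene, per the file headers; the single-library files hold the same values as the table of the whole series. The submitters' processing notes name FastQC, HISAT2 and the build hg38. The program behind the FPKM, its annotation, its handling of shared reads and the strand setting are not given in these sources, so genes that share exon bases may have shared reads. Counts are not used here, so the depth is unknown and no counting interval or floor is given. A 0 can be a failed estimate.

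The FPKM went into limma 3.58.1 in R 4.3.3 on the log2(FPKM + 1) scale, its prior following mean level. The 15930 genes that reached 1 FPKM somewhere were fitted with terms for line and transfection and 1 residual degree of freedom. Errors are limma's standard errors. P-values were adjusted over all tested genes by Benjamini-Hochberg at 0.05. The fit was also run on simulated data, with the same transfection change in both lines and variances drawn from its own prior. That run cannot show how well 2 different lines serve as replicates. Alternatives changed the scaling, pseudocount (0.1 and 5), filter, prior, model terms and the libraries used. Gene positions are those of the files on hg38, overlaps come from GENCODE release 29 (57836 of 58174 identifiers matched) and promoters from RefSeq. In each pathway list the genes eligible to be named were the 2 most abundant and up to 2 per direction with the largest called line difference. WNT3A, R-spondins, BTRC, TLE3, LYZ, SUPT4H1, SKP1 and AL353813.1 were named after their values were seen, as were LGR5 and NKD1 in the fit without a filter. Members and lists were chosen with earlier results of these data known.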

Additional observations from a re-analysis of the deposited data

Results flagged for a closer look

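For 7 of the 10 members and for LGR4, the si-FENDRR library stood on opposite sides of si-NC in the 2 lines. LGR4 was the only pathway gene 2-fold apart in FPKM + 1 within a line. With 1 library of each kind in a line, the difference between the responses was not tested, and opposite signs are common among all genes (7497 of 15930 tested). The LM3 difference minus the RBE difference, on the log2(FPKM + 1) scale, was 0.58 for TCF7L2, 0.26 for RNF43, 0.18 for ZNRF3, 0.16 for AXIN2, 0.13 for GLUL, 0.11 for CTNNB1 and -0.073 for NKD1. It was -1.19 for LGR4, whose LM3 libraries had 4.14 FPKM with si-FENDRR and 10.3 with si-NC. Of the 66 tested pathway genes 27 had opposite signs, and the gap of BTRC was wider, at -1.44.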

How the results depend on the processing

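The 6 members called between the lines by limma kept their direction and their call under 11 alternatives each, with adjusted p-values of at most 0.049 (TBX3, without the RBE si-FENDRR library). TCF7L2 and ZNRF3 stayed above the threshold, at adjusted p-values of 0.0531 to 0.399 and 0.322 to 0.912. The size depended on the pseudocount: the LEF1 difference was -3.93 with 0.1 added and -0.45 with 5 added. The count of genes called between the lines was 5573 to 6980 when each library was left out in turn, fits that have fewer samples and no transfection term; with all 4 libraries and no such term it was 9643. The lone library of a line is assumed there to vary like the other line. Without the filter, LGR5 and NKD1 were tested and called. No member was called between transfections under any alternative run, and with all 4 libraries 1 difference turned its sign, that of AXIN2, which was 0.0063 with 5 added and -0.018 with 1 added. Leaving out a library reduces the transfection difference to that of the other line, with no test, and then turned the sign for 7 members, those with opposite signs in the lines. The labels give no replicate numbers, and the 2 libraries of each line differ in transfection. Depth behind the weak values of LEF1, NKD1 and LGR5 is unknown.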
